A study of Drosophila melanogaster with 3 samples.

Results

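The genes described here encode the machinery that copies chromosomal DNA, from the origin recognition complex to the polymerases, the sliding clamp and the enzymes that finish the lagging strand. They were a list of 41 gene symbols, of which 38 matched the annotation among 13945 protein-coding genes. The 38 fell into 7 steps, with 5 genes of origin recognition, 3 of licensing, 6 of the helicase core, 9 of helicase activation and the fork, 7 of the polymerases, 5 of the clamp and its loader, and 3 of single-strand binding and flap removal. A gene was called occupied where the summit of a deposited ChIP-seq region lay within 500 bp of any of its annotated start sites.

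Regions came from 3 biological replicates of a single group, with no group of another genotype or treatment. The embryos were of mixed sex and 0 to 24 hours old, so they pooled stages and tissues. They came from a transgenic line that stably carries the RA form of chiffon (chif) with GFP at its C terminus, and chromatin was precipitated through the GFP tag. The regions report the tagged protein alone, and the driver of the transgene is not given in the sources used here. Each replicate has a relaxed list of 30000 regions, which by design holds background as well as peaks, and 1 pooled list of 25066 regions was made from all 3. The reproducible list, made with the irreproducible discovery rate (IDR) procedure, holds 3684 regions. The signal value of a region is the authors' own score, with no stated scale, and serves here to rank regions within a list. The highest regions of a replicate are its 3684 regions of highest signal value.

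The gene chiffon is the fly counterpart of the gene for Dbf4, the subunit that activates the kinase Cdc7. The Dbf4-Cdc7 kinase phosphorylates the Mcm2-7 helicase at licensed origins, which allows Cdc45 and the GINS complex to join it and the polymerases to start. In flies a product of chiffon also takes part in a complex with the histone acetyltransferase Gcn5, a chromatin regulator of transcription. The regions do not show in which of these roles the tagged protein was present. Genes of the replication machinery are transcribed in proliferating cells, and in flies many of them are known to be controlled by E2F1-Dp and by Dref, the factor that binds the DNA replication-related element (DRE).

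Promoter sequences at replication genes with and without a reproducible region show the letters that lie under the summits and at starts that had none. The set below holds the bases within 100 bp of an IDR summit that lie outside annotated exons, with up to 8 bases past a start site, all from dm6 in the RefSeq copy of the genome and written along the gene's strand. PolA1, the catalytic subunit of polymerase alpha, is shown on the minus strand at chr3R:21671743-21671911. Cdc7, the kinase that Dbf4 activates, is shown on the plus strand at chrX:6654466-6654548. Prim1, the catalytic primase subunit, is shown on the plus strand in its intron at chr3L:8340500-8340689. PolD2, the second subunit of polymerase delta, is shown on the plus strand at chr3L:1775438-1775640. The Psf1 window, of which 72 bases lie outside exons and hold no match, is not shown. The windows at dup, dpa and Ctf4 are not shown either, whether or not they hold bases outside exons. The last is the strongest reproducible region of all 38 genes, in an intron of Cdc7 at chrX:6656167-6656367. Capitals mark matches, on either strand, to the DRE (TATCGATA), to the E2F-type words TTTCGCGC, TTTGGCGC, TTTCCCGC and TTTGCCGC, to the Motif 1 core (GGTCACAC), to the E-box CAGCTG or to the GAGA repeat GAGAGAG. Neither the PolD2 nor the Cdc7 intron window holds any of them, and in the Prim1 window GCGCGAAA is TTTCGCGC read on the other strand.
PolA1: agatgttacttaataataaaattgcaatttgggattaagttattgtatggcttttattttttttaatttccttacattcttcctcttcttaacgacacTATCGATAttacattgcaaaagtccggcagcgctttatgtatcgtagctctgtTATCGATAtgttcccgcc
Cdc7: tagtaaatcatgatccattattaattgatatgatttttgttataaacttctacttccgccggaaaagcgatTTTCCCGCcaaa
Prim1: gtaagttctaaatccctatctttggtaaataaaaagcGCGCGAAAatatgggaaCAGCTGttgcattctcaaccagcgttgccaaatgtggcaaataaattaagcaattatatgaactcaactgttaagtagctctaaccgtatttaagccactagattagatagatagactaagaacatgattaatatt
PolD2: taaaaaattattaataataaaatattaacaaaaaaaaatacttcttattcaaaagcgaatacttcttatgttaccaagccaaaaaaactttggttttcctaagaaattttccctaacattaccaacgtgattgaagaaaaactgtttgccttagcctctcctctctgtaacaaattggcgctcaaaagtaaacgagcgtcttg
Cdc7 intron: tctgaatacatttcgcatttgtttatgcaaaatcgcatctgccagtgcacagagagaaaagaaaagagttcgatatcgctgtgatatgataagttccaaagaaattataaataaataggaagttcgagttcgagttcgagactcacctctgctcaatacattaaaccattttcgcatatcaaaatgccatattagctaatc

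For contrast, 2 genes with no start-site summit of any rank in any list are shown as the 100 bases before the start site and the 8 bases from it on, in the same build. Mcm3, a subunit of the replicative helicase, is on the plus strand at chrX:5323755-5323862, and PolE2, the second subunit of polymerase epsilon, is on the minus strand at chr3L:5897428-5897535. Each carries the Motif 1 core beside the start, followed by an E2F-type word in Mcm3 and by a DRE in PolE2. These 2 were chosen because they hold the most matches. Of the other comparable windows Mcm10 holds 1 match and Orc2, RPA2 and RPA3 hold 0.
Mcm3: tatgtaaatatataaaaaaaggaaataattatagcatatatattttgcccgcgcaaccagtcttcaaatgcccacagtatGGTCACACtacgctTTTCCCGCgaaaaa
PolE2: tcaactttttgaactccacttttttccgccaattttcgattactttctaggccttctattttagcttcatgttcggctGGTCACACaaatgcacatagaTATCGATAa

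Reproducible regions lay at the start sites of 8 of the 38 replication genes (21.1%), against 15.0% of all protein-coding genes. They were dup in licensing, dpa in the helicase core, Psf1, Cdc7 and Ctf4 in its activation and at the fork, and PolA1, Prim1 and PolD2 among the polymerases. None of the 5 origin recognition genes, the 5 clamp and loader genes, or the 3 genes of single-strand binding and flap removal had one. Each step holds few genes, so these counts do not rank the steps against each other or against the share of all genes. In the pooled list, where a region of any rank counts, 21 of 38 (55.3%) had a summit at a start site, against 45.1% of all genes.

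Each replicate alone also had regions at more replication genes than its background. Summits of the highest regions lay at 9 genes (23.7%) in replicate 1, 11 (28.9%) in replicate 2 and 7 (18.4%) in replicate 3, against 14.2%, 15.3% and 14.4% of all genes. The mean was 23.7% ± 5.26 (SD, n = 3) for replication genes and 14.6% ± 0.596 (SD, n = 3) for all genes. The 3 shares lay above those of all genes, while 1 gene more or less moves the share of the replication genes by 2.63 percentage points. Counting only IDR regions that overlapped the highest regions of all 3 replicates left 6 genes (15.8%), against 9.73% of all genes. No test was made, because genes are not replicates and several share a region with a neighbour.

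Within each arrangement of genes the share of replication genes lay close to that of all genes, on 18 and 20 replication genes. Whether arrangement accounts for the difference given above was not tested. A gene is head to head here when a protein-coding start site on the opposite strand lies within 500 bp, and 18 of the 38 replication genes were (47.4%), against 27.8% of all genes. Among head-to-head genes 6 of 18 were occupied (33.3%), against 29.3% over all head-to-head genes. Among the other genes 2 of 20 were occupied (10%), PolA1 and Prim1, against 9.52%. When each IDR summit was given to its nearest start site alone, 4 replication genes kept one (10.5%), namely dpa, Cdc7, PolA1 and PolD2, against 11.2% of all genes. The dpa summit was 120 bp from dpa and 122 bp from the start of its neighbour didum, almost a tie.

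**Figure D1:**
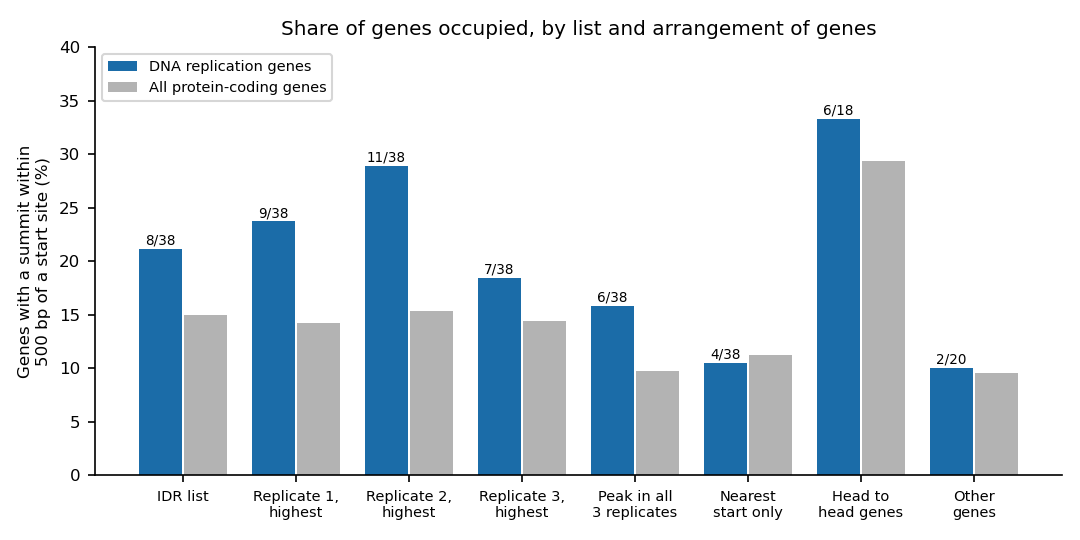
Bars give the percentage of genes with a summit within 500 bp of a start site, for DNA replication genes (blue, with their counts) and all protein-coding genes (grey). The blue bar stands above the grey one in the IDR list and every replicate, and the bars come close for nearest start sites and within each arrangement of genes.

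Origin recognition genes encode the complex that marks origins and seats the helicase, and none of the 5 had a reproducible region. Orc1, the ATPase subunit, had a pooled region with a signal value of 53.8 (rank 9158), 29 bp upstream of its start. The region there ranked 3128 in replicate 3, inside the highest regions, and 10457 in replicate 2. The start-site region of replicate 1, at rank 17227, lay elsewhere, 404 bp downstream of the start, and did not overlap these. Orc4 had regions in replicates 2 and 3 alone, at ranks 23896 and 13738, and Orc5 in replicate 3 alone, at rank 11880. Orc2 and Orc6 had no start-site region in any list.

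Licensing brings Cdt1 and Cdc6 to the origin to load the helicase, with geminin as the inhibitor of Cdt1. The Cdt1 gene dup (FBgn0000996) had an IDR region at 2R 15380493 to 15380888, with a signal value of 230.9 and rank 793. In the replicates it ranked 600, 1465 and 710, with signal values of 80.0, 62.0 and 85.2, and all 3 were well inside the highest regions. The region of Cdc6 was far lower, with a pooled signal value of 55.1 (rank 8697) and replicate ranks of 18681, 6545 and 21267. That of geminin was near the end of the pooled list at 34.9 (rank 24023), and replicate 2 alone had it, at rank 7276. The start-site regions counted for dup and geminin thus stood near opposite ends of the pooled list. The dup summit, however, lay nearer to the start of SRPK (33 bp) than to that of dup (77 bp). Its region cannot be assigned to dup from its position.

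The helicase core is a ring of 6 related subunits, and 1 of the 6 genes was occupied. It was dpa (FBgn0015929), which encodes Mcm4, with an IDR region at 2R 7499827 to 7500222, a signal value of 241.7 and rank 725. Its replicate ranks of 687, 657 and 924 were the closest together of the 8 occupied genes, with signal values of 73.9, 92.8 and 73.9. Mcm2 had a pooled signal value of 78.1 (rank 4742) and ranks of 4359 and 2285 in replicates 1 and 2, and no region in replicate 3. Mcm5 had a pooled signal value of 67.9 (rank 5949), with replicate ranks of 2592, 6322 and 12659. Mcm6 and Mcm7 had regions of low rank in 2 replicates each, from 17467 to 28707, and Mcm3 had none at its start. Start-site regions of the 6 genes thus ran from rank 725 in the pooled list to none. The highest, that of dpa, had its summit 120 bp from dpa and 122 bp from the start of didum. It cannot be assigned to dpa from its position.

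Among helicase activation and fork factors 3 of 9 genes were occupied. Cdc7 (FBgn0028360), the kinase that Dbf4 activates, had an IDR region over its start at X 6654368 to 6654763, with a signal value of 142.8 and rank 1885. It ranked 1263 and 1581 in replicates 1 and 2 but 4257 in replicate 3, outside the highest regions, with signal values of 52.8, 59.6 and 32.0. Ctf4 (FBgn0033890), which in yeast links the helicase to polymerase alpha, had the strongest start-site region of this step at 2R 13983221 to 13983616. Its signal value was 177.8 (rank 1273) and its replicate ranks were 1688, 861 and 1467, with signal values of 43.9, 81.4 and 58.4. A further IDR region at 2R 13983423 to 13983818 overlaps it (131.7, rank 2127), and the same replicate regions underlie both.

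The GINS complex has 4 subunits that travel with the helicase, and only 1 of their genes was occupied. Psf1 (FBgn0035194) had an IDR region at 3L 1247745 to 1248140, with a signal value of 143.6 and rank 1863. Its replicate ranks were 1032, 1873 and 3920, so replicate 3 again fell outside, with signal values of 59.2, 54.1 and 33.5. Psf3 had 80.7 in the pooled list (rank 4533), the strongest value below the occupied genes, and ranked 15884, 3153 and 8937. Psf2 had 52.3 (rank 9747) and Sld5 47.7 (rank 11930). Of the remaining fork genes, mus101, the fly TopBP1 gene, had 41 (rank 16888), timeout had a start-site region in replicate 2 alone (rank 11453), and Mcm10 had none at its start.

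Among the polymerases 3 of 7 genes were occupied, against 15.0% of all genes, and all 3 recurred in every replicate. The Prim1 summit, however, lay nearer to a start of CG7083 (196 bp) than to that of Prim1 (275 bp). PolA1 (FBgn0259113) had an IDR region at 3R 21671613 to 21672008, with a signal value of 149.4, rank 1738 and replicate ranks of 1316, 1424 and 2818. Its replicate signal values were 51.4, 62.8 and 40.6. Prim1 (FBgn0011762), the partner that makes the RNA primer, had one at 3L 8340391 to 8340786 (146.2, rank 1803), with replicate ranks of 1900, 1317 and 3442 and signal values of 40.9, 65.3 and 36.2. PolD2 (FBgn0027903) had one at 3L 1775340 to 1775735 (140.5, rank 1930), with replicate ranks of 1508, 2990 and 1868 and signal values of 46.7, 41.2 and 51.4.

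Other subunits of the same enzymes were not occupied. PolA2, the second subunit of polymerase alpha, had start-site regions of rank 28523 and 10088 in replicates 2 and 3. PolD1, the catalytic subunit of polymerase delta, had a pooled signal value of 34.9 (rank 23989). Of the polymerase epsilon genes, PolE1 had a start-site region in replicate 2 alone, at rank 28535, and PolE2 had none. Polymerases alpha and delta each had occupied and unoccupied subunit genes, and neither epsilon gene was occupied.

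The clamp PCNA, which holds the polymerase on DNA, had a weak pooled region of 43.8 (rank 14492, −log10 q of 0.168), with ranks of 15890 and 8100 in replicates 1 and 2 and none in replicate 3. Its nearest IDR summit was 1093 bp away, the shortest such distance among unoccupied replication genes, and lay 3 bp from a start site of RpS18, a ribosomal protein gene. Gnf1, the large loader subunit, ranked 2781 in replicate 2 but 21111 in replicate 3, and had no region in replicate 1. The loader genes RfC3, RfC4 and RfC38 had replicate regions alone, at ranks from 8723 to 15237. The flap nuclease gene Fen1 had a pooled signal value of 36.6 (rank 21715). RPA2 and RPA3, which encode subunits of the single-strand binding complex, had no start-site region.

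**Figure D2:**
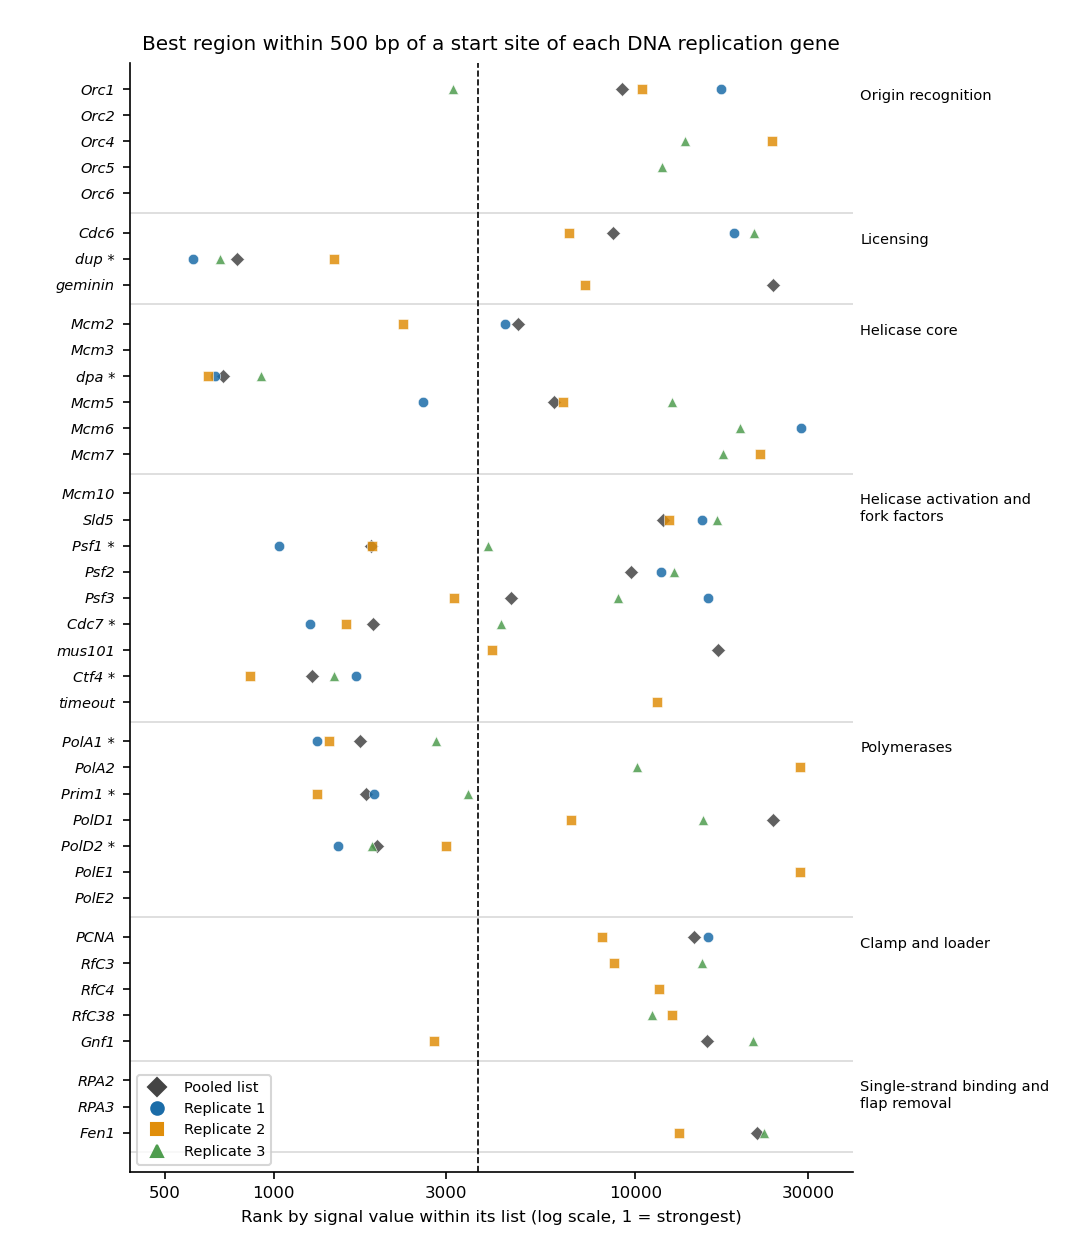
Each row is a DNA replication gene, and each mark is the rank of its best region within 500 bp of a start site in the pooled list (diamond) or, not always at the same place, in replicate 1 (circle), 2 (square) or 3 (triangle), on a log axis. The dashed line is rank 3684, asterisks mark the 8 genes with an IDR summit, and 7 genes have no mark because no list had a region there.

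The strongest start-site regions of occupied and unoccupied replication genes lay apart in signal value, on either side of the lowest value in the IDR list. The lowest signal value anywhere in the IDR list was 92.4. The weakest occupied replication genes were PolD2 at 140.5, Cdc7 at 142.8 and Psf1 at 143.6, and the strongest outside were Psf3 at 80.7, Mcm2 at 78.1 and Mcm5 at 67.9. The further Ctf4 region, at 131.7, fell between these. So did several of the further replication and S phase genes given below, such as asf1 at 88.9 and Top2 at 112.9. The pooled −log10 q was 3.6 at the strongest start-site region of each of the 8 occupied genes and 2.93 at the further Ctf4 region, against 1.68 at Psf3, 1.53 at Mcm2 and 1.03 at Mcm5. Beyond the 8, a pooled region alone was present at 13 genes, with signal values from 34.9 to 80.7, a replicate region alone at 10, and no start-site region at 7. Shares of all genes with a pooled region alone or a replicate region alone are not given here. In all, 31 of the 38 (81.6%) had a start-site summit in some list, against 68.2% of all genes, and 13 (34.2%) in every relaxed replicate list, against 25.6%.

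In 5 unoccupied genes the region entered the highest regions of a single replicate. These were Mcm2, Psf3 and Gnf1 in replicate 2, Mcm5 in replicate 1 and Orc1 in replicate 3. Replicate 2 supplied 3 of the 5 and also had the largest count of replication genes. The matching share of all genes is not given here.

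Within the 2094 occupied genes of the genome, the replication genes ranked in the middle. Their median signal value was 147.8, with a range of 140.5 to 241.7, against a median of 158.7 for all occupied genes, whose highest value was 2044. By signal value dpa took place 527 of 2094, dup place 571, Ctf4 place 871 and the other 5 places 1141 to 1254. Over all genes with a pooled region, the median best rank was 5949 for 21 replication genes and 6314 for 6283 genes.

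**Figure D3:**
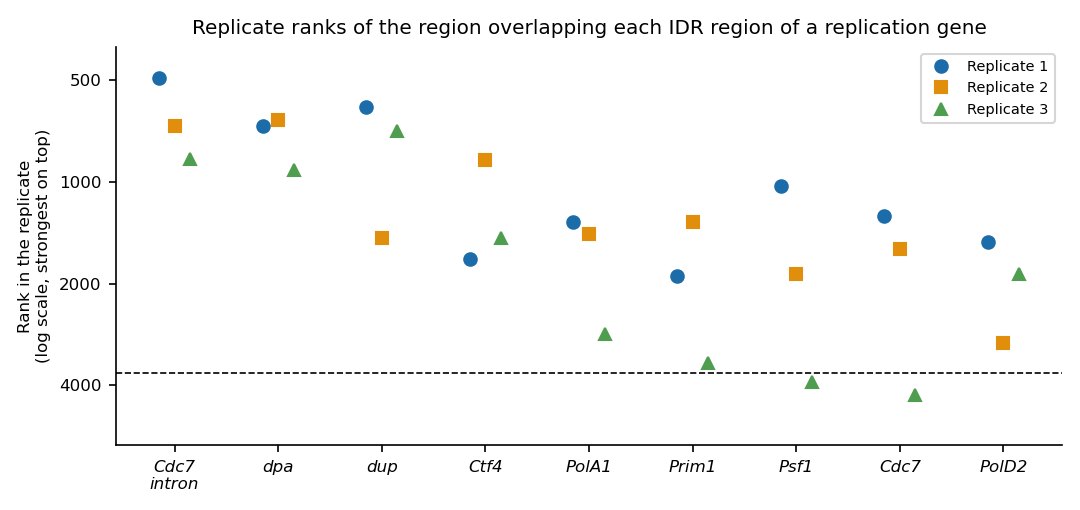
Marks give the rank, on a log axis with the strongest at the top, of the replicate region that overlaps each IDR region of a replication gene, for replicates 1 (circle), 2 (square) and 3 (triangle). The dashed line is rank 3684. Psf1 and the Cdc7 start site lie below it in replicate 3, while the Cdc7 intron and dpa stay at rank 924 or stronger in all 3 replicates.

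Most IDR summits at replication genes also lay within 500 bp of the start of another gene. Of 9 IDR summits at these genes 8 (88.9%) were within 500 bp of a start site of a further protein-coding gene, against 620 of 1641 (37.8%) of all IDR summits at coding start sites. With a window of 250 bp it was 3 of 6, against 393 of 1320 (29.8%). These backgrounds count each summit once, whereas a shared summit can be reached through either of its genes. A set picked by gene therefore meets shared summits more readily, so the shares are not a matched comparison. Both overlapping Ctf4 regions are among the 9 summits, with the same neighbour CG8067. Head-to-head arrangement was also commoner among the replication genes, as given above, and its part in this difference was not tested. The dpa start lay 2 bp from that of didum, which encodes myosin V. The summit was 120 bp inside dpa and 122 bp from the didum start. At dup the summit lay 33 bp from the start of SRPK, a kinase of splicing factors, and 77 bp upstream of the nearest dup start. At Ctf4 it lay 24 bp from a start of CG8067 and 102 bp upstream of Ctf4, and the further summit was 9 bp from another CG8067 start.

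The summit counted for Psf1 lay 266 bp upstream of Psf1 and 77 bp from a start of Sac1, in an exon of that phosphoinositide phosphatase gene. At Cdc7 the summit was 25 bp inside the gene and 318 bp from the start of CG3226. At PolD2 it was 95 bp upstream and 391 bp from the start of CG13933. The Prim1 summit lay 275 bp downstream of the Prim1 start, in its intron, and 196 bp from a start of CG7083 on the same strand. PolA1 was the exception, with a summit 61 bp upstream of its start and no other coding start within 500 bp. For dup, Psf1, Ctf4 and Prim1 the neighbour's start was the nearer one, so the region cannot be assigned to the replication gene from its position. Nor can that of dpa, whose summit was almost equally far from dpa (120 bp) and didum (122 bp).

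The median distance of the 8 summits was -69 bp from the start of the replication gene, with 5 of 8 upstream. Over all 2094 occupied genes it was -130 bp, with 1867 upstream. Windows reaching 100 bp either side of the 9 summits had a GC content of 29.9% to 44.8%, with a median of 36.8%, against 36.3% over the 1641 promoter summits.

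**Figure D4:**
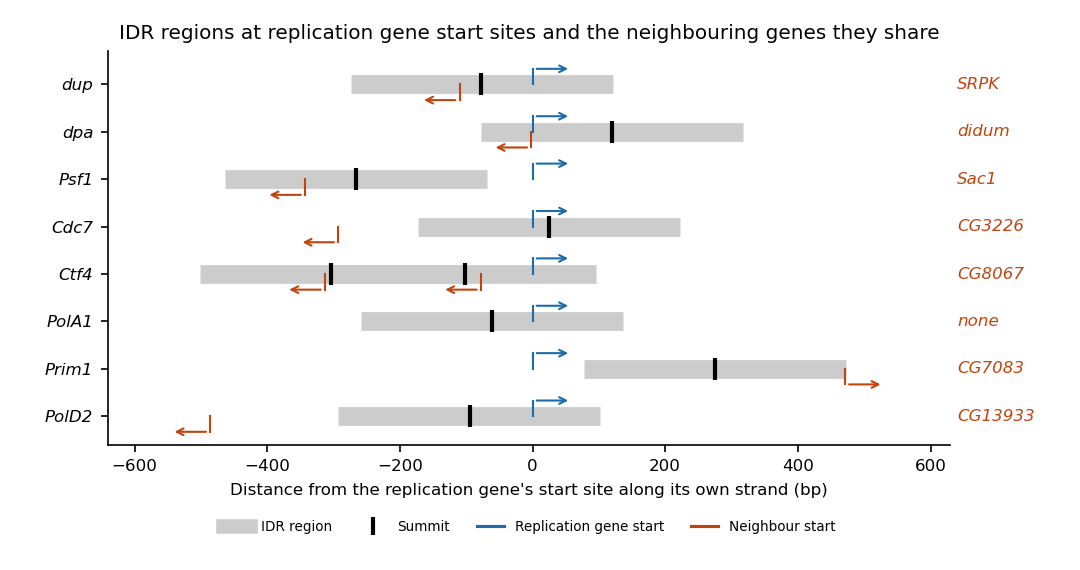
Each row places the IDR regions (grey) and summits (black) of an occupied replication gene on an axis of bp from its start site along its own strand. Blue arrows are starts of the replication gene, and red arrows are starts of the neighbour named at the right, with their direction. Of the 8 genes, PolA1 alone has no neighbour.

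Inside gene bodies the strongest region of the whole set belonged to Cdc7. An IDR region in its intron at X 6656069 to 6656464, whose summit lay 1588 bp downstream of the nearest Cdc7 start, had a signal value of 255.0 and rank 646. Replicate ranks were 493, 687 and 859, all stronger than those of the Cdc7 start-site region in the same replicates. It was the only IDR summit in the body of a replication gene over 500 bp from that gene's start sites, 1 of 38 genes (2.63%), against 6.55% of all genes. Counting any overlap of an IDR region with the gene body, start sites included, gave 7 genes, which were the occupied ones other than Psf1.

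Pooled regions of any rank lay in the bodies of 18 replication genes (47.4%), away from their start sites, against 35.3% of all genes. They numbered 26, of which 20 were in coding exons of any gene, and apart from the Cdc7 intron their signal values ran from 34.5 to 71.1. The region in Prim1, counted among the 20, lay in a coding exon of CG7083 and an intron of Prim1. The highest of these was in a coding exon of Orc1 (71.1, rank 5545), stronger than the Orc1 start-site region. The long gene timeout held 6 of the 26. Besides the Cdc7 intron, 3 of the regions overlapped the highest regions of a replicate, 1 in Sld5 and 2 in timeout, and in each case it was replicate 1 alone.

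Motifs known from replication promoters were frequent, and they were frequent at occupied and unoccupied genes alike. The promoter was taken from 250 bp before to 50 bp after each annotated start, and both strands were searched for the letters given with the sequences. An E2F-type word was found at 19 of 38 replication genes (50%), against 8.69% of all promoters, and a DRE at 11 (28.9%), against 10.2%. At least 1 of these was present at 25 genes (65.8%), against 18.0%, and both at 5 (13.2%), against 0.889%. The Motif 1 core was found at 5 genes (13.2%, against 8.71%), the E-box at 9 (23.7%, against 22.3%) and the GAGA repeat at 0 (against 9.08%).

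An E2F-type word was present at 5 of the 8 occupied genes and 14 of the 30 others, and a DRE at 2 of 8 and 9 of 30. The DRE genes without an IDR summit included PCNA, with its DRE first base at position -27 from 1 of its starts, PolA2 at -16 and Gnf1 at -66, where negative positions are upstream of the start. PolA1 had 3 DRE words, first bases at -197, -63 and -10, and the middle one was centred 2 bp from the summit. The E2F-type words were within 100 bp of the start-site summit at dpa, dup, Cdc7 and Prim1 and of the further Ctf4 summit. This made 5 of 9 summit windows, against 4.02% of 1641 promoter summits. Replication promoters held such a word at 50% of the 38 genes, over a longer window, and at 14 of the 30 without an IDR summit. The share over all promoter summits is therefore not a matched background for these genes. The Prim1 word lies in the intron, outside the promoter window. The word at the further Ctf4 summit also lies outside the Ctf4 promoter window, and that summit was 9 bp from a CG8067 start. The E2F-type word of Psf1 is 216 bp from its summit. The E-box was in 3 of the 9 windows (dup, Prim1 and Ctf4), against 12.6%, and the DRE in 1, against 7.13%. In the Ctf4 promoter the 2 E2F-type words at 16 and 20 bp past the start overlap on opposite strands. They are centred 122 and 126 bp from the stronger Ctf4 summit. A match of letters does not show that a factor binds there.

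**Figure D5:**
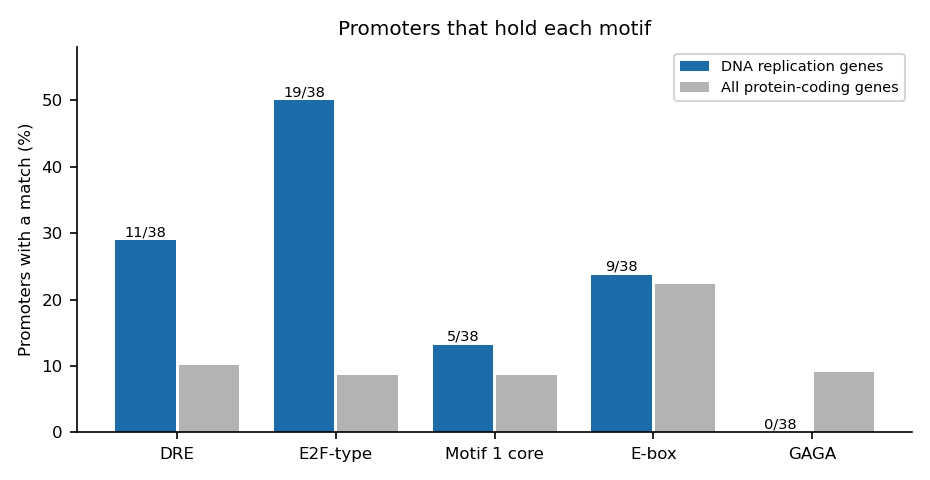
Bars give the percentage of promoters that hold each motif, for 38 DNA replication genes (blue, with counts) and 13945 protein-coding genes (grey). E2F-type words reach 50% against 8.69%, and the DRE 28.9% against 10.2%.

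Beyond the machinery itself, a list of further replication and S phase genes was read in the same way. The list was chosen with earlier results of these data known, so its shares are description only. Of 44 symbols 38 matched, and 8 of these were occupied (21.1%), against 15.0% of all genes, and 26 had a pooled summit of any rank, against 45.1% of all genes. The strongest was Dp, the partner of E2F1, with a signal value of 296.9 (rank 467) and replicate ranks of 214, 704 and 777. Top1, which relaxes DNA ahead of the fork, had 225.9 (rank 822), and RnrS, the small subunit of ribonucleotide reductase, had 178.3 (rank 1271). The checkpoint mediator Claspin had 133.9, the histone mRNA binding protein gene Slbp 124.6, the replication timing factor Rif1 122.1 and the topoisomerase gene Top2 112.9. The start site of chif itself had 219.9 (rank 865), in flies that also carry a chif transgene. Dp was above dpa, the strongest start-site region of the machinery at 241.7, and Top1 below it. Of these 8 further genes Dp, chif and Slbp were head to head, with Fsn, CG4455 and Rpn2, and the others were not.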

How the data were processed

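Genome binding was measured by ChIP-seq in 3 biological replicates of 1 group. Per the deposited file listings, the authors made a relaxed list per replicate, a pooled list and an IDR list, each against 1 shared control alignment. For the aligner, the caller and the IDR cutoff, nothing is stated in the labels or file listings. The signal value, the −log10 q and the summit offset of each region are the authors' deposited values. Depth is unknown, so no interval is given. Values were taken in dm6, with Ensembl release 115 gene models (BDGP 6.54) and RefSeq sequence, whose coordinates were the same for all 38 genes. Fragments were 200 to 800 bp per the labels. Of the listed symbols lat, CDC45L and RpA-70 matched no symbol and were left out.

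Occupancy, overlap (at least 1 bp), distance and motifs were computed in Python 3.11.15 with numpy 2.4.6 and pandas 2.3.3, and occupancy calls were checked on simulated data. Sequence of 1 chromosome arm is not shown. Occupied genes were named with all values, others by their best rank. The genes, lists and steps were chosen with earlier results of these data known. No test was made, since there is 1 group. Replicate values measure the spread between these libraries.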

Additional observations from a re-analysis of the deposited data

How the results depend on the processing

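The count of occupied replication genes stayed at 8 with a window of 1000 bp, with canonical start sites, with any base of the region in the window, and with regions in the highest of at least 2 replicates. A window of 250 bp gave 6, against 11.9% of all genes, without Psf1 and Prim1. The stronger part of the IDR list, cut at its middle rank, gave 5, and nearest start sites alone gave 4. In that stronger part the further pathway genes numbered 4. The background of 15.0% was 17.6% with a window of 1000 bp, 13.1% with canonical start sites, 16.2% with any base of the region, 29.3% for head-to-head genes and 9.52% for the others. The mean replicate share of 23.7% was 15.8% with 250 bp, 14% with only the stronger part of the highest regions and 60.5% with whole relaxed lists. It ran from 21.1% to 26.3% with a replicate left out. Matching shares of all genes are not given for these settings or for the stronger part of the IDR list. These values therefore show only how the replication genes themselves move. The 6 genes found in all 3 replicates became 3 with the stronger part of the highest regions, and 6 to 8 with a replicate left out. The median distance of -69 bp was -18 bp with canonical start sites and -84, -83 and -79 bp in the highest regions of replicates 1, 2 and 3. Shared summits fell from 8 to 3 with a window of 250 bp, so the share given to a neighbour depends on the window. Gene body counts fell from 7 for any overlap to 4 for a summit inside the body and 1 away from start sites. A share of all genes is given above for the last of these alone. The motif counts moved by less than 1.5 times under a longer promoter window or canonical starts. Added after seeing the data, the present names Orc3, Cdc45 and RPA1 of the absent symbols raised the pooled count from 21 to 24 and left the IDR count at 8. Their pooled signal values were 51.0, 44.6 and 78.1, and the region of RPA1 is that of Mcm2. The windows of the background were also added after seeing the data. No paired analysis was possible because there is 1 group. Without read counts, the absence of a region at 7 genes' start sites says nothing on how far they could be measured.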
